A study of Homo sapiens with 16 samples.

Results

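The comparison described here is that of neural progenitors treated with TMG with their DMSO controls on day 12 (D12) of differentiation. It holds 4 RNA-seq libraries, chosen by their titles and column names, of the 16 libraries sequenced on D0, D12, D30 and D70. All came from H9, an established human embryonic stem cell line. The control cells (D12_DMSO, replicates 1 and 2) received DMSO only, and the treated cells (D12_TMG, replicates 1 and 2) received 40 µM TMG dissolved in DMSO. TMG was also given to the undifferentiated cells before induction, so the treated arm had been exposed since before induction. Both arms were grown until D12 in KSR and N2 media with LDN193189, which blocks BMP type 1 receptors, and SB431542, which blocks activin and TGF-beta receptors, the dual SMAD inhibition that directs stem cells to neural fate. A limit of the labels bears on every result: the separate treatment tag names the other arm for 8 of the 16 libraries, and for 2 of the 4 of D12, control replicate 2 being tagged TMG and TMG replicate 1 being tagged control. The libraries are described as biological replicates, and the labels do not say whether these were separate cultures. P-values therefore measure only the spread between the libraries used in each test.

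O-GlcNAc is a single sugar that the enzyme OGT adds to serine and threonine residues of nuclear and cytoplasmic proteins and that the enzyme OGA removes. Its donor, UDP-GlcNAc, is made from glucose, amino acid and nucleotide precursors, so the modification follows nutrient supply. TMG (Thiamet-G) inhibits OGA and so raises O-GlcNAc on transcription factors, histone modifiers and RNA polymerase II. Cells on D12 of this protocol are neural progenitors, which divide, express PAX6 and NES, and have yet to become neurons; the surface ectoderm, neural crest and placodes are the neighbouring fates that BMP signalling normally favours.

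The D12 libraries held between 15090777 and 17797538 estimated counts, and 24249 genes passed the expression filter of a fit over all 16 libraries. Values below are CPM, counts scaled to a common library size by TMM, and log2 fold changes are TMG over control by edgeR with their standard errors (SE). Across these genes log2 CPM of any pair of D12 libraries correlated at a Pearson r between 0.961 and 0.978 (across genes, which are not independent replicates). The pair with the highest r, 0.978, was control replicate 2 and TMG replicate 2, and the pair with the lowest was control replicate 1 and TMG replicate 2. The D12 libraries therefore did not separate by arm over all genes. In bulk RNA, more cells of a type and more RNA per cell cannot be told apart.

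In the edgeR fit of all libraries 0 genes (0%) passed a false discovery rate of 5%, and the lowest adjusted p was 1. At an unadjusted p under 0.05 it gave 374 genes higher (1.54%) and 227 lower (0.936%) in TMG. DESeq2 on the same 16 libraries called 9 genes higher (0.0561% of 16032 genes) and 2 lower (0.0125%), and DESeq2 on the 4 libraries of D12 called 104 higher (0.439% of 23695 genes) and 12 lower (0.0506%). On simulated data the edgeR fit of all libraries also called none of the changed genes, so its lack of calls does not show an absence of change, while DESeq2 on the 4 libraries called most of the larger changes with a share of false calls above the nominal rate. "Rose" and "fell" are used below only for genes called by DESeq2 on the 4 libraries. These calls leaned on control replicate 1: without it DESeq2 called 1 gene higher and 0 lower, with the remaining control assumed to vary like the TMG libraries. Both TMG replicates lay above both controls for 4319 genes (17.8%) and below both for 4000 (16.5%), the background against which the gene groups are read. Over all genes the median log2 fold change was 0.00.

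The target pathway and the progenitor identity came first. OGT was at 490 and 479 CPM in the controls and at 635 and 582 CPM in TMG (log2 fold change 0.33 ± 0.15 SE, unadjusted p = 0.0563 by edgeR). Both TMG replicates were above both controls. OGA, the gene of the inhibited enzyme, was at 340 and 316 CPM in the controls and at 424 and 340 CPM in TMG (0.22 ± 0.22), which left the groups touching. Of 20 genes of O-GlcNAc and hexosamine metabolism tested, 5 (25%) were above and 3 (15%) below both controls, where 17.8% and 16.5% of all genes were. Their median was 0.06.

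The D12 label held against its markers in both arms. PAX6, the transcription factor that marks neuroectoderm, was at 574 and 585 CPM in the controls and at 551 and 304 CPM in TMG. TMG replicate 2 alone was far below. NES, an intermediate filament of neural stem cells, was at 464 and 336 CPM in the controls and at 368 and 286 CPM in TMG. OTX1, a forebrain and midbrain factor, was at 162 and 258 CPM in the controls and at 252 and 177 CPM in TMG. The NES and OTX1 ranges overlapped between the arms. The stem cell factor POU5F1 was between 0.373 and 0.766 CPM in the 4 libraries.

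**Figure D1:**
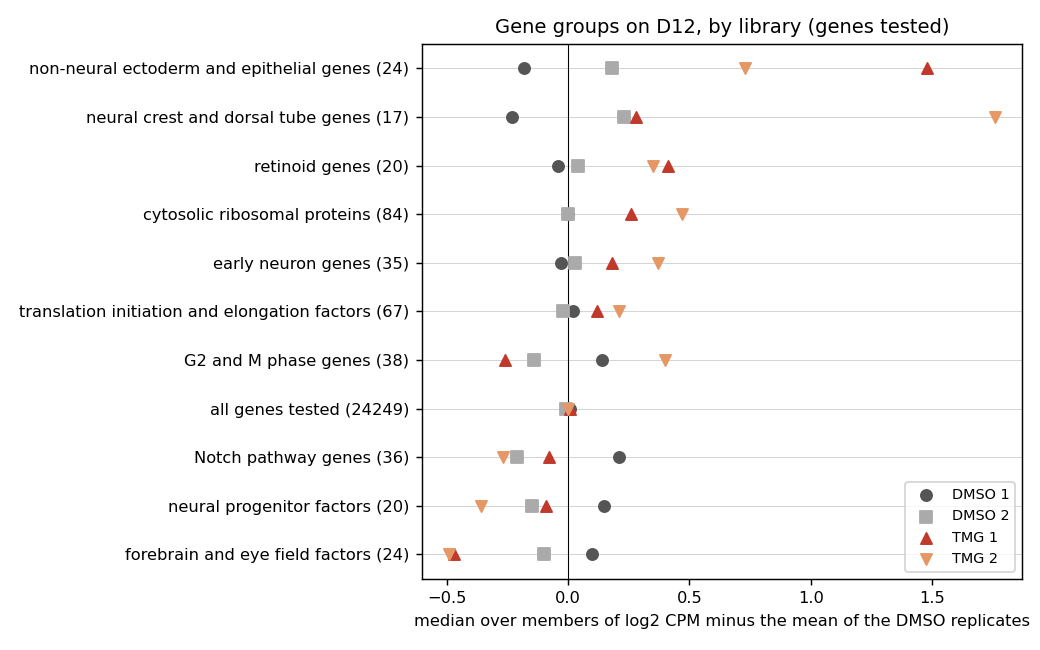
Median, over the tested members of each gene group, of the difference between a library's log2 CPM and the mean of the DMSO replicates (horizontal axis, log2), with 1 symbol per D12 library and the number of members in parentheses. The epithelial group sat highest in TMG 1 (1.48) and the neural crest group in TMG 2 (1.76), while the forebrain factors were below zero in both TMG libraries.

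Epithelial genes were higher in TMG, and more so in TMG replicate 1. Of 24 tested genes of non-neural ectoderm and epithelium, keratins, junction proteins and the transcription factors that specify surface ectoderm, 19 (79.2%) lay above both controls in both TMG replicates and 0 below, and 9 rose. Their median log2 fold change was 1.24, against 0.00 over all genes. TMG replicate 1 was above both controls for 22 of them and TMG replicate 2 for 19, and 21 were higher in replicate 1. The median deviation from the control mean was 1.48 in replicate 1 and 0.73 in replicate 2. Without TMG replicate 1 the group's median was 0.71. Summed over the group, expression was 749 and 939 CPM in the controls and 2220 and 1300 CPM in the TMG replicates.

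TP63 (ENSG00000073282; GRCh37 chromosome 3, 189349178 to 189615065), the master transcription factor of stratified epithelium, was at 0.737 and 2.03 CPM in the controls and at 15.6 and 10.3 CPM in TMG. It rose by DESeq2 (adjusted p = 9.96e-06), and its edgeR log2 fold change was 3.23 ± 2.11. COL17A1 (chromosome 10, 105791044 to 105845638), the collagen that anchors basal keratinocytes in hemidesmosomes, was at 2.75 and 5.8 CPM in the controls and at 59.6 and 22.3 CPM in TMG. It had the lowest adjusted p of all genes, 5.55e-06 by DESeq2, with an edgeR log2 fold change of 3.26 ± 1.66. Both genes stood clear of the controls in each TMG replicate, and both were higher in replicate 1. KRT7, the keratin of simple epithelia, was at 5.31 and 14.8 CPM in the controls and at 84.7 and 38.6 CPM in TMG (2.62 ± 0.99, DESeq2 adjusted p = 0.000517).

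Other members were higher too. CDH1, the epithelial cadherin, was at 18.3 and 32.1 CPM in the controls and at 120 and 70.5 CPM in TMG, a 3.78-fold difference of means. GRHL2, a transcription factor that maintains epithelial junctions, was at 5.21 and 6.73 CPM against 27.2 and 16.6 CPM. ESRP1, the epithelial splicing regulator, was at 4.57 and 6.13 CPM against 26.5 and 15.8 CPM. These 3 genes rose, with DESeq2 adjusted p-values of 0.000808, 0.000893 and 0.000587. KRT17 rose too, from 1.23 and 2.68 CPM to 12.9 and 5.03 CPM. WNT6, a surface ectoderm ligand, rose from 3.54 and 6.73 CPM to 24.1 and 15.7 CPM. TFAP2A rose from 21 and 23.8 CPM to 47.9 and 70.9 CPM and TFAP2C from 16.1 and 18.3 CPM to 44.5 and 45.7 CPM; these AP-2 factors act in surface ectoderm and in neural crest.

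KRT8, KRT18, KRT19 and EPCAM were higher without being called. KRT8 was at 317 and 378 CPM in the controls and at 788 and 445 CPM in TMG (0.83 ± 0.34), and its partner KRT18 was at 152 and 161 CPM against 399 and 192 CPM (0.92 ± 0.46). KRT19 was at 81.1 and 120 CPM against 257 and 161 CPM. EPCAM, an adhesion protein that stem cells share with epithelium, was at 5.95 and 7.94 CPM against 24.9 and 12.6 CPM. All 4 had TMG replicate 2 nearer to the controls than replicate 1. Not every defining gene of stratified epithelium was there: KRT5 had no count in any D12 library and KRT14 was at no more than 0.147 CPM. GATA2 was at 4.47 and 7.88 CPM in the controls and at 22.1 and 6.52 CPM in TMG, so that it was high in replicate 1 only.

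A list of 21 hemidesmosome and desmosome genes, the anchors of epithelial cells to matrix and to each other, was written after the values were seen. Of these, 9 (42.9%) lay above and 1 (4.76%) below both controls and 3 rose, with a median of 0.49. The shift was mostly that of TMG replicate 1, with a median deviation of 0.70 against 0.06 in replicate 2. ITGB4, the hemidesmosomal integrin, was at 3.54 and 5.04 CPM in the controls and at 34 and 11.9 CPM in TMG (2.42 ± 0.63, DESeq2 adjusted p = 0.0015). PKP3, a desmosomal plaque protein, rose from 2.21 and 3.39 CPM to 17.8 and 9.57 CPM. DSP, the plaque protein of all desmosomes, was at 208 and 197 CPM against 402 and 230 CPM and was not called.

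**Figure D2:**
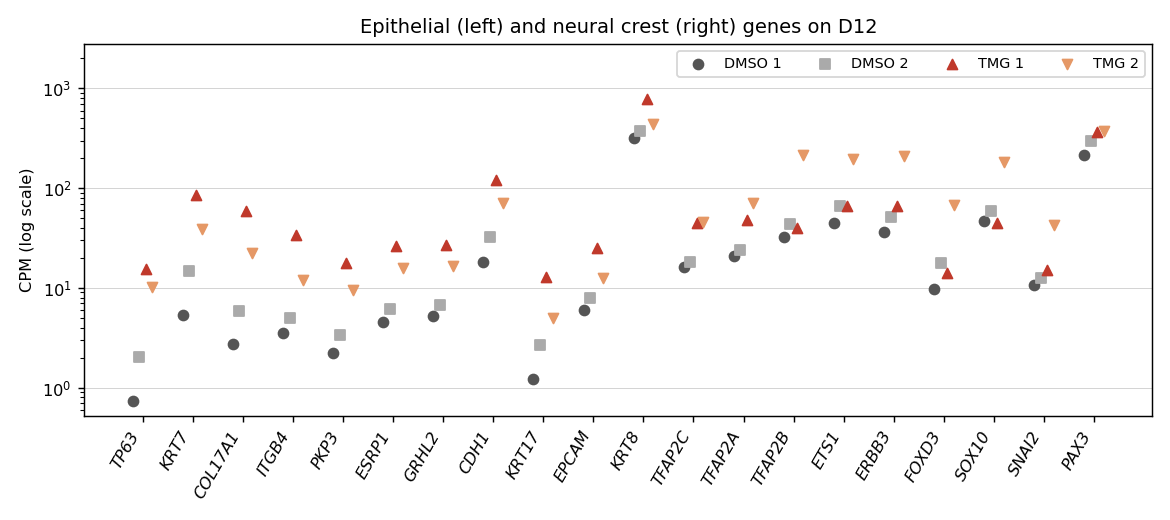
CPM on a log scale (vertical axis) of named genes in each D12 library. The genes from TP63 to KRT8 are epithelial (COL17A1, ITGB4 and PKP3 come from the hemidesmosome and desmosome list), TFAP2C and TFAP2A belong to both lists, and TFAP2B to PAX3 are neural crest genes. Both TMG symbols lie above the controls for the epithelial genes, with TMG 1 higher, whereas for SOX10 and FOXD3 TMG 2 alone stands apart. For SNAI2 TMG 1 lies slightly above the controls and TMG 2 far above.

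Neural crest genes were also higher, but in the other replicate. Of 17 tested genes of neural crest and dorsal neural tube, 9 (52.9%) lay above both controls in both TMG replicates and 0 below, and 2 rose (TFAP2A and TFAP2C, both also counted in the epithelial list). The median log2 fold change was 1.25. TMG replicate 2 was above both controls for 16 genes and replicate 1 for 9. The median deviation was 0.28 in replicate 1 and 1.76 in replicate 2. Without TMG replicate 2 the median was 0.26. The summed level was 628 and 863 CPM in the controls and 989 and 2075 CPM in TMG.

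SOX10, which sets neural crest identity, was at 47.1 and 59.2 CPM in the controls and at 44.7 and 185 CPM in TMG. FOXD3, a crest specifier, was at 9.83 and 17.7 CPM against 14.2 and 67.2 CPM. SNAI2, which drives the epithelial to mesenchymal transition of crest cells, was at 10.6 and 12.7 CPM against 15.2 and 42.7 CPM. ERBB3, the neuregulin receptor of migrating crest, was at 36.5 and 50.8 CPM against 66.4 and 211 CPM. Replicate 2 carried these differences, and replicate 1 lay within or close to the control range. ETS1, a cardiac crest factor, was at 44.3 and 66.4 CPM against 66.1 and 197 CPM (1.25 ± 0.52, unadjusted p = 0.0349). TFAP2B, another AP-2 factor, was at 32.3 and 43.4 CPM against 39.6 and 215 CPM. The dorsal tube genes differed less between the TMG replicates: PAX3 was at 217 and 300 CPM against 362 and 375 CPM, and MSX1, a BMP target, at 22.1 and 46.8 CPM against 68.2 and 69.5 CPM.

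**Figure D3:**
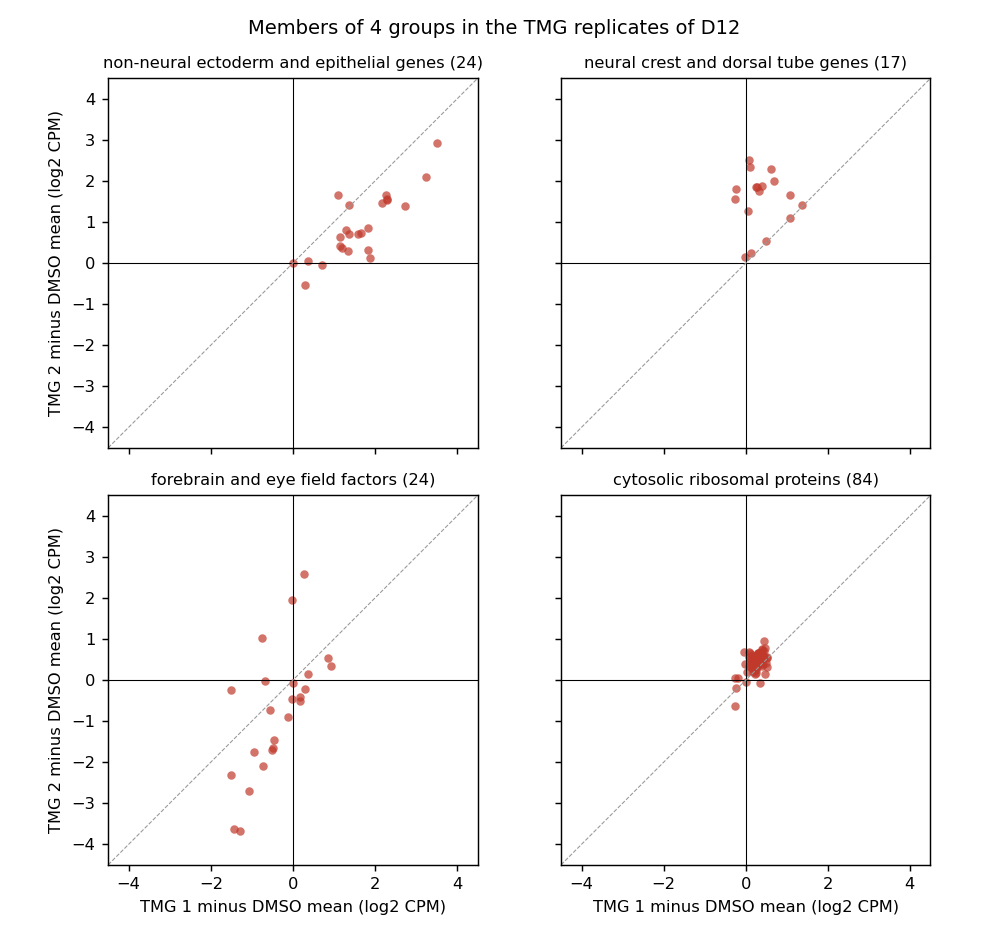
Each point is a tested gene, placed by its log2 CPM in TMG 1 (horizontal) and TMG 2 (vertical), both minus the mean of the DMSO replicates; the dashed line marks equal differences. Because both axes use the same control mean, the panels show where members lie and no correlation is read from them. Epithelial genes lie mostly below the line, neural crest genes above it, many forebrain factors in the lower left and ribosomal protein genes in a tight cloud at the upper right.

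Trophoblast and placental genes, a list written after the values were seen, resembled the epithelial group. Of 19 tested, 9 (47.4%) were above both controls and 0 below, 6 rose and the median was 1.45. The deviation was 1.94 in TMG replicate 1 and 0.20 in replicate 2. SIGLEC6, a placental lectin, rose from 2.41 and 3.72 CPM to 24.7 and 10.9 CPM, and PRLR, the prolactin receptor, from 1.87 and 2.57 CPM to 9.46 and 8.01 CPM. CGA, the hormone alpha subunit, was at 2.9 and 2.24 CPM in the controls and at 30 and 2.3 CPM in TMG, so that replicate 1 alone was high. The list shares KRT7, TFAP2C and GATA3 with the epithelial list. The summed level was 71.6 and 82.1 CPM in the controls and 339 and 154 CPM in TMG.

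Genes of pigment cells and the retinal pigment epithelium were a list also written after the values were seen. Among 22, 10 (45.5%) lay above and 1 (4.55%) below both controls, and 5 rose (median 0.48). ABCA4 (chromosome 1, 94458390 to 94586704), a retinoid transporter of photoreceptors and pigment epithelium, was at 5.31 and 6.3 CPM in the controls and at 23.4 and 18.5 CPM in TMG (1.85 ± 0.42). It was called by DESeq2 on 16 libraries (adjusted p = 0.00057) and on 4 (adjusted p = 0.000115). MYO7A, a myosin of pigment epithelium and hair cells, rose from 11.1 and 15.6 CPM to 43.3 and 37 CPM. DCT, a melanin synthesis enzyme, rose from 2.6 and 4.49 CPM to 11.2 and 27.5 CPM, TRPM1, a melanocyte and retinal channel, from 2.11 and 5.8 CPM to 13 and 25.5 CPM, and TTR, the transthyretin of choroid plexus and pigment epithelium, from 0.639 and 1.04 CPM to 9.09 and 3.35 CPM. The part of other cell types in the changes of these 5 groups was not tested. For comparison, mesendoderm and endoderm genes summed to 38.2 and 25.9 CPM in the controls and 28.8 and 36.3 CPM in TMG, and endothelial and blood genes to 24.2 and 42.3 CPM against 44.4 and 30.8 CPM. Neither list separated the arms. Mesenchymal and stromal genes summed to 4655 and 6080 CPM in the controls and to 6768 and 6426 CPM in TMG, where both sums were higher. Of the 34 members, 7 (20.6%) lay above and 5 (14.7%) below both controls, near the 17.8% and 16.5% of all genes, with a median of 0.27.

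Single genes of cell cycle arrest, DNA repair and apoptosis were lower in both TMG replicates without being called. Apart from PIDD1, which was among the lowest unadjusted p-values, they were named by the gene rule as members, at an unadjusted p under 0.05, of a list that is not reported here. CDKN1A (chromosome 6, 36644237 to 36655114), the p21 inhibitor of cyclin-dependent kinases, was at 152 and 116 CPM in the controls and at 89 and 38.6 CPM in TMG (-1.07 ± 0.42, unadjusted p = 0.0286). FDXR, a mitochondrial ferredoxin reductase, was at 23.4 and 25.1 CPM against 13.5 and 9.38 CPM (-1.09 ± 0.32). DDB2, a nucleotide excision repair factor, was at 66.5 and 49.5 CPM against 36.5 and 22.6 CPM (-0.97 ± 0.39). In all 3 the TMG replicates lay below both controls, with replicate 2 lower. The apoptosis genes BBC3 and BAX were at 36.3 and 29.5 CPM against 23.8 and 14.8 CPM, and at 62.7 and 75 CPM against 46.4 and 47.2 CPM. AEN, an apoptosis nuclease, was at 86.6 and 72.7 CPM against 56.8 and 43.2 CPM, and PIDD1, a death domain protein, at 108 and 106 CPM against 64.8 and 49 CPM (-0.91 ± 0.22, unadjusted p = 0.0019).

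Forebrain and eye field factors, which pattern the anterior neural plate, were mostly lower. Of 24 tested, 9 (37.5%) lay below both controls and 2 above, 1 fell, and the median was -0.46. The control replicates themselves differed in these genes: without control replicate 1 the median was -0.16 and without control replicate 2 it was -0.78. FEZF1 (chromosome 7, 121941357 to 121950745), a zinc finger factor of the rostral forebrain, fell from 34.3 and 27.4 CPM to 10.8 and 6.03 CPM (-1.87 ± 1.52, DESeq2 adjusted p = 0.000517). Its antisense neighbour FEZF1-AS1 fell from 71.4 and 47.5 CPM to 19.1 and 8.76 CPM; the strand setting of the counting is not given in the sources used here, so reads of the pair cannot be told apart. SIX3, the eye field factor, was at 56.5 and 22.7 CPM in the controls and at 14.5 and 2.67 CPM in TMG, and RAX, another eye field gene, at 16.9 and 7.88 CPM against 4.16 and 0.808 CPM. Both arms spread widely in SIX3 and RAX, and neither was called. LHX5 was at 98.6 and 71.3 CPM against 58.7 and 25.8 CPM, FEZF2 at 39.9 and 16.9 CPM against 18.9 and 9.26 CPM, and EMX2 at 63.7 and 37 CPM against 45 and 26 CPM. FEZF2 and EMX2 overlapped between the arms.

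Among 20 neural progenitor factors, 7 (35%) lay below and 2 (10%) above both controls (median -0.30) and 0 were called. The median deviation was 0.15 and -0.15 in the controls and -0.09 and -0.36 in TMG replicates 1 and 2, so that only replicate 2 lay outside the control range. SOX2 was at 109 and 90.9 CPM in the controls and at 81.1 and 61.8 CPM in TMG, and its relative SOX3 at 162 and 72.9 CPM against 95.1 and 29.8 CPM. NR2E1, the orphan receptor that keeps progenitors dividing, was at 17.5 and 3.83 CPM against 3.33 and 1.37 CPM. In SOX3 and NR2E1 the control replicates lay far apart. POU3F1, a POU factor of the early neural plate that is not on this list, fell from 19.8 and 19.2 CPM to 9.3 and 6.46 CPM (DESeq2 adjusted p = 0.026). Of 19 midbrain and hindbrain factors, 7 (36.8%) lay above both controls and 1 (5.26%) below, with a median of 0.40. Their median deviation was 0.23 and -0.23 in the controls and 0.57 and 0.17 in TMG replicates 1 and 2, so that replicate 2 lay within the control range. Its 1 called member was LMX1B, of the isthmus and midbrain, which rose from 17.1 and 26.5 CPM to 49.7 and 61.5 CPM. LHX9, of diencephalon and midbrain roof, which is not on that list and was chosen after its values were seen, rose from 7.18 and 10.3 CPM to 55.2 and 16.7 CPM.

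Notch signalling, by which neighbouring progenitors hold each other back from differentiation, stood near the background as a list. Of 36 pathway genes tested, 6 (16.7%) lay below both controls, where 16.5% of all genes did, and 3 (8.33%) above, with a median of -0.17. DLL1 (chromosome 6, 170591294 to 170615653), a Delta ligand, fell from 133 and 86.2 CPM to 50.8 and 20.1 CPM (-1.63 ± 0.78, DESeq2 adjusted p = 0.0391). JAG1, a Jagged ligand, was at 424 and 305 CPM in the controls and at 227 and 143 CPM in TMG (-0.98 ± 0.43, unadjusted p = 0.0458). Both ligands were lowest in TMG replicate 2. The ligands DLL3, JAG2 and DLL4 overlapped between the arms, with DLL3 at 9.73 and 7.56 CPM against 8.05 and 16.8 CPM. The receptors NOTCH1 and NOTCH3 were at 495 and 395 CPM against 312 and 333 CPM, and at 655 and 650 CPM against 485 and 479 CPM. The coactivator MAML2 was at 33.6 and 28.8 CPM against 57.9 and 50.8 CPM (0.80 ± 0.22). The effector HES5 was at 102 and 35 CPM in the controls and at 32 and 2.24 CPM in TMG, and HES1 at 66.4 and 42.2 CPM against 56.4 and 30.8 CPM. HES1 overlapped between the arms, and in HES5 control replicate 2 and TMG replicate 1 were close.

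**Figure D4:**
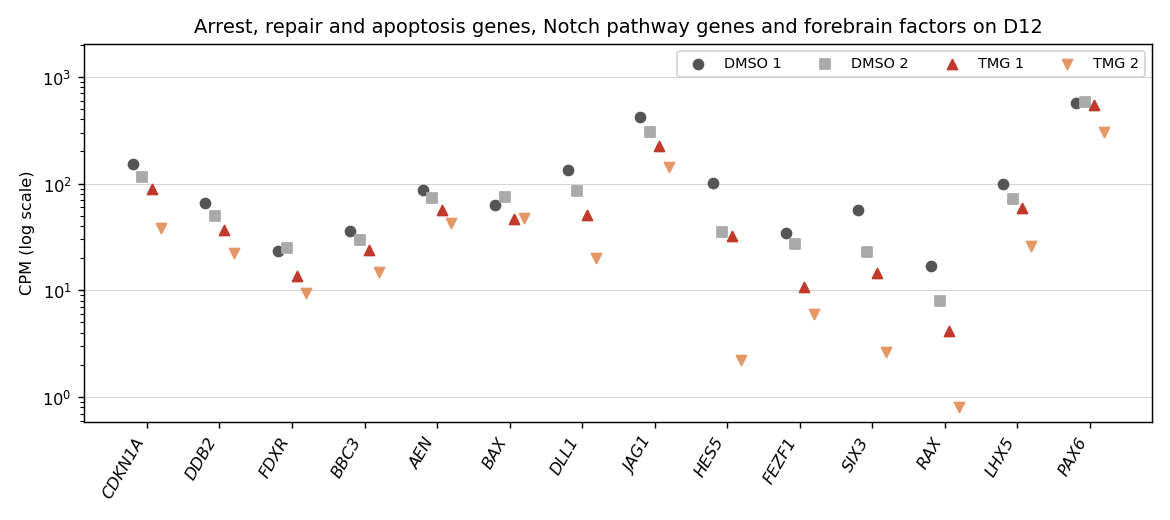
CPM on a log scale (vertical axis) in each D12 library for genes of cell cycle arrest, DNA repair and apoptosis (CDKN1A to BAX), Notch pathway genes (DLL1, JAG1 and HES5) and forebrain and progenitor factors (FEZF1 to PAX6). CDKN1A, DDB2, FDXR, DLL1 and FEZF1 have both TMG symbols below both controls, and in PAX6 TMG 2 alone is far below.

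Among 35 proneural and neuronal differentiation factors, 7 (20%) lay above both controls on D12, near the 17.8% of all genes, 2 (5.71%) lay below, and 1 rose. Their median deviation was 0.23 and -0.23 in control replicates 1 and 2 and 0.21 and 0.20 in TMG, so that control replicate 1 was as high as the TMG libraries. Among 35 early neuron genes 12 (34.3%) lay above, where 17.8% of all genes did, and 2 (5.71%) below, with a median of 0.27, and 0 were called. On D30 the median log2 fold changes of the same lists were 2.39 and 1.59, and 15 and 18 of their genes were higher at an unadjusted p under 0.05. TBX3, a T-box factor, rose on D12 from 5.31 and 2.79 CPM to 14.5 and 11.2 CPM (DESeq2 adjusted p = 0.0282). FOXP2, a forkhead factor of cortical neurons, was at 1.18 and 1.59 CPM in the controls and at 3.01 and 9.94 CPM in TMG. NEUROG1 was at 8.99 and 4.71 CPM against 11.8 and 26.5 CPM, and NEUROD1 at 8.65 and 3.39 CPM against 6.91 and 13.1 CPM. HOPX was at 5.56 CPM in TMG replicate 1 and at most 0.688 CPM in the other D12 libraries. Of these, NEUROD1 and HOPX overlapped between the arms. Of a list of 44 genes taken from the study's text, which were chosen on these libraries, 10 (22.7%) lay above and 11 (25%) below both controls on D12. Over all genes the shares were 17.8% and 16.5%, and the median of the list was -0.06.

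Ribosomal protein genes were higher by a small amount, but together. Of 84 tested genes of the cytosolic ribosome, 72 (85.7%) lay above both controls and 1 below, 10 were higher and 1 lower at an unadjusted p under 0.05, and 0 were called. The median log2 fold change was 0.36, with 0.26 in TMG replicate 1 and 0.47 in replicate 2. The summed level was 7391 and 7308 CPM in the controls and 8817 and 10109 CPM in TMG. On D30 the same list had a median of -0.19. Reads of these genes can be shared with their processed pseudogenes, so values of single members are uncertain. RPL26 was at 74.7 and 69.7 CPM in the controls and at 92.8 and 105 CPM in TMG (0.45 ± 0.15), RPL34 at 45.4 and 44 CPM against 59.6 and 64.2 CPM (0.47 ± 0.17), RPL35A at 97.2 and 87.9 CPM against 121 and 131 CPM (0.44 ± 0.15), RPS14 at 88.6 and 89.5 CPM against 114 and 128 CPM (0.44 ± 0.17), and RPS23 at 72.4 and 72.2 CPM against 99.9 and 125 CPM (0.64 ± 0.26). The control replicates were close in each of them, and TMG replicate 2 was the highest library. Other translation genes differed less: 19 of 67 initiation and elongation factors (28.4%) lay above and 3 (4.48%) below (median 0.14). For mitochondrial ribosomal proteins the counts were 15 (19.7%) and 7 (9.21%) of 76 (median 0.06). Their share above was near the 17.8% of all genes, of which 16.5% lay below.

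Ribosomal protein genes are known for a run of pyrimidines at the transcription start, the 5' terminal oligopyrimidine element through which mTOR signalling controls their translation. The letters CTTTC or CTTCC on the sense strand, in a window of 30 bases from 10 before to 20 from the start, were found for 43 of the 69 ribosomal protein genes that have a RefSeq window (62.3%), against 10.8% of all 27305 windows, 22.2% of translation factors and 20.9% of mitochondrial ribosomal proteins. The windows of the 5 genes above are shown to let that run be seen, 5' to 3' from RefSeq (GRCh38.p14), with the matched letters in capitals; RPL35A has no match to these letters.
RPL26: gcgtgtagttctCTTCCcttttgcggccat
RPL34: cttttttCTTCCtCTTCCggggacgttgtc
RPL35A: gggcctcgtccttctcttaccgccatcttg
RPS14: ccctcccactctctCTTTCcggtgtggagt
RPS23: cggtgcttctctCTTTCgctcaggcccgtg
The windows lie at chr17:8383174-8383203 (minus strand), chr4:108620566-108620595 (plus), chr3:197950180-197950209 (plus), chr5:150449720-150449749 (minus) and chr5:82278335-82278364 (minus). A match describes the letters and is no evidence of a site in use.

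PARP14 had the lowest unadjusted p among the genes named by the rule. PARP14 (ENSG00000173193; GRCh37 chromosome 3, 122399686 to 122449687), a mono-ADP-ribosyltransferase induced by interferon, was at 16.5 and 13.8 CPM in the controls and at 41.6 and 32.4 CPM in TMG (1.29 ± 0.23, unadjusted p = 0.00014 by edgeR). It was called by DESeq2 on 16 libraries (adjusted p = 0.000999) and on 4 (adjusted p = 0.0059). Its neighbour DTX3L, a ubiquitin ligase, rose from 2.9 and 1.97 CPM to 9.51 and 6.34 CPM (1.70 ± 0.46). PARP9, the partner of DTX3L, was at 2.06 and 2.08 CPM against 5.56 and 3.35 CPM (1.10 ± 0.44). All 3 were higher in both TMG replicates, and on D30 their log2 fold changes were 0.74, 1.27 and 1.38.

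In a list of 22 genes around PARP9, PARP14 and antiviral defence, written after the values were seen, 16 (72.7%) lay above both controls and 0 below, 9 at an unadjusted p under 0.05, and 5 rose. The median was 1.16, with 1.28 in TMG replicate 1 and 1.09 in replicate 2. IFI6, an interferon-induced mitochondrial protein, rose from 4.82 and 5.97 CPM to 23.7 and 11.6 CPM, and LY6E, a surface protein that restricts viral fusion, from 26.1 and 42.3 CPM to 87.8 and 70.3 CPM. GBP2, a guanylate-binding protein, rose from 1.43 and 0.876 CPM to 12.2 and 2.55 CPM. NFKB1 was at 9.58 and 12 CPM in the controls and at 18.2 and 20.3 CPM in TMG, and RBM43 at 3.24 and 1.92 CPM against 8.47 and 6.34 CPM. A broader list of 34 interferon response genes was not among those added after the values were seen. It was still chosen with earlier results of these data known. It had 11 (32.4%) above and 6 (17.6%) below both controls and a median of 0.12. In it OAS3 was at 0.197 and 0.547 CPM against 1.19 and 1.55 CPM, and B2M, the light chain of MHC class I, at 25.8 and 40.4 CPM against 59.2 and 53.4 CPM. Its counts lay closer to those of all genes.

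Interferon-induced promoters often hold GAAA followed by GAAA after 2 bases of any kind, the letters of the interferon-stimulated response element. Searched on both strands from 250 bases before to 50 after the start, they were found in 8 of the 14 list members with a RefSeq window (57.1%) and in 17 of 27 interferon response genes (63%), against 3.65% of all windows and 7.25% of ribosomal protein genes. The list members were chosen after their values were seen, and many interferon genes are known to hold these letters, so the share describes the kind of gene. The promoter windows of PARP14, DTX3L and IFI6 are shown as called genes that hold these letters. GBP2 and LY6E were also called and are not among the members found to hold them. The windows come from RefSeq (GRCh38.p14), 5' to 3' on the gene's strand, with the matched letters in capitals.
PARP14: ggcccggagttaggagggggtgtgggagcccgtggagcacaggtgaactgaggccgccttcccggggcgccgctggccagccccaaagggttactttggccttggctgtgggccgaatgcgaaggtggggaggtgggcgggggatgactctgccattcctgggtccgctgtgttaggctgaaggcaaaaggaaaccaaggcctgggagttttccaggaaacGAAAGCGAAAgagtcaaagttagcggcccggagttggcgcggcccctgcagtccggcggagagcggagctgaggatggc
DTX3L: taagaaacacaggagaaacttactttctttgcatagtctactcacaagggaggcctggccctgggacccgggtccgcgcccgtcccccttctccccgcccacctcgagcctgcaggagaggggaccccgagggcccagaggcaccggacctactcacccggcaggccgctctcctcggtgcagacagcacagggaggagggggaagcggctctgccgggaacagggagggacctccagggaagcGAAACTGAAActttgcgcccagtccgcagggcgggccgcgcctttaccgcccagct
IFI6: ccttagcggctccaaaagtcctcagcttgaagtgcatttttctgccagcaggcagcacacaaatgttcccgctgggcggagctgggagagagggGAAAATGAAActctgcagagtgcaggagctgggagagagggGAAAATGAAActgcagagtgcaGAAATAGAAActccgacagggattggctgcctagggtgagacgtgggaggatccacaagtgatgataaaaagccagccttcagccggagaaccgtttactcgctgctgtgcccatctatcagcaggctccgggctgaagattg
The PARP14 window is chr3:122680589-122680888 (plus strand) with its match starting 29 bases before the start, and that of DTX3L is chr3:122564088-122564387 (plus strand) with its match 6 bases before it. The IFI6 window, chr1:27672143-27672442 (minus strand), holds 3 matches, the first 156 bases before the start. PARP9 lies on the other strand, and its nearest RefSeq start is 38 bases from that of DTX3L, so the pair share a promoter region.

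Beside the groups, the ranked genes were of mixed function. Those higher by edgeR and called by DESeq2 on 16 libraries were PARP14, ABCA4, CPXM2, EPAS1, PLEKHA2, ST3GAL1, MACIR and SFRP4. CPXM2, a secreted carboxypeptidase homologue, was at 1.57 and 1.97 CPM in the controls and at 8.52 and 7.39 CPM in TMG (2.16 ± 0.41). EPAS1, the hypoxia-inducible factor 2 alpha, was at 11.3 and 13.1 CPM against 78.2 and 29.7 CPM, and SFRP4, a secreted WNT inhibitor, at 0.295 and 0.657 CPM against 5.4 and 2.98 CPM. PLEKHA2 was at 7.91 and 7.83 CPM against 16.7 and 18.9 CPM, ST3GAL1, a sialyltransferase of O-glycans, at 18.7 and 25.8 CPM against 52.6 and 52.9 CPM, and MACIR at 16.6 and 18 CPM against 29.5 and 39.8 CPM. The arms stood apart in all of them. The other calls of that test were MAMDC4, at 53.6 and 59.8 CPM against 36.7 and 37.5 CPM (-0.61 ± 0.15), and DSG3 and CSTA, which on D12 rest on 0, 0, 1 and 1 counts and on 1, 1, 0 and 0 counts and say nothing of that day.

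The genes highest ranked by DESeq2 on the 4 libraries also included LRRK2, a kinase of vesicle traffic, which rose from 0.639 and 0.766 CPM to 6.08 and 6.9 CPM (3.19 ± 0.89, adjusted p = 9.96e-06). MBNL3, a splicing regulator, rose from 30.2 and 40.5 CPM to 156 and 101 CPM, and SLC40A1, the iron exporter ferroportin, from 3.98 and 3.61 CPM to 48.6 and 11.1 CPM. CRYBG1 rose from 4.03 and 6.02 CPM to 31 and 18.8 CPM and DACT2, a modulator of WNT signalling, from 1.92 and 1.75 CPM to 9.3 and 8.01 CPM. LRRK2 and DACT2 were alike in the TMG replicates, whereas SLC40A1 was mostly high in replicate 1. By edgeR, the other genes with the lowest unadjusted p were NSG1, at 8.26 and 10.5 CPM against 18.6 and 25.5 CPM, TMEM117, at 0.541 and 1.04 CPM against 2.86 and 3.6 CPM, and CRISPLD2, at 1.57 and 1.97 CPM against 7.12 and 3.85 CPM.

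The 12 genes that fell were FEZF1, FEZF1-AS1, DLL1, POU3F1, GPC3, DLK1, TTBK1, PCYOX1L, FSD1, the readthrough gene BLOC1S5-TXNDC5 and 2 genes without a symbol. GPC3 (chromosome X, 132669773 to 133121127), a glypican that binds WNT and Hedgehog ligands, went from 975 and 872 CPM to 396 and 167 CPM (-1.71 ± 0.82, DESeq2 adjusted p = 0.00465). Its log2 fold change on D30 was -2.04. TTBK1, a neuronal tau kinase, fell from 8.55 and 12.8 CPM to 3.38 and 2.86 CPM, PCYOX1L from 20.1 and 21.5 CPM to 9.46 and 9.19 CPM, and FSD1 from 28.7 and 28.9 CPM to 13.9 and 14.5 CPM. The replicates of each arm were close in PCYOX1L and FSD1. The counts of BLOC1S5-TXNDC5, at 1.62 and 4.98 CPM against 0.156 and 0.373 CPM, overlap those of its component genes and are uncertain. The genes lower by edgeR with the lowest unadjusted p were MAMDC4, PIDD1, ANKRD24, FAM53A, SEC31B, ATP6AP1L, RAD51C, PCYOX1L, MAPK12, SLC5A4-AS1, CPSF1P1 and MOV10. RAD51C, a homologous recombination factor, was at 9.24 and 11.7 CPM against 5.3 and 5.96 CPM, MAPK12, a p38 kinase, at 79.2 and 55.6 CPM against 40.7 and 27.5 CPM, and MOV10, an RNA helicase, at 268 and 258 CPM against 189 and 146 CPM.

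Signalling lists were also counted. Among 20 retinoid genes, 8 (40%) lay above both controls and 0 below (median 0.36), where 17.8% and 16.5% of all genes did. CRABP2, which delivers retinoic acid to its receptor, was at 124 and 149 CPM in the controls and at 210 and 365 CPM in TMG (1.07 ± 0.33), and CYP26A1, which degrades retinoic acid, at 0.442 and 0.219 CPM against 1.71 and 0.87 CPM. Among 40 genes of G protein alpha q and calcium signalling, 15 (37.5%) lay above and 1 (2.5%) below (median 0.29). ITPR2, a calcium release channel, rose from 8.75 and 10.3 CPM to 23.7 and 32.7 CPM, and GNAQ was at 77.5 and 80.2 CPM against 104 and 102 CPM. Of 49 WNT receptors, modulators and targets, 13 (26.5%) lay above and 7 (14.3%) below, with a median of 0.19. AXIN2, the common target of canonical WNT signalling, was at 77.5 and 158 CPM against 239 and 265 CPM, and SFRP2, a secreted WNT inhibitor, at 535 and 514 CPM against 317 and 185 CPM. Both had their arms apart. NRP1 and NRP2, semaphorin and VEGF receptors, were at 9.48 and 26.1 CPM against 42.8 and 41.1 CPM and at 71 and 92.5 CPM against 128 and 270 CPM. The receptor genes EPHA6 and GABRA3 rose, from 1.33 and 1.59 CPM to 5.87 and 6.9 CPM and from 1.03 and 2.57 CPM to 6.44 and 9.13 CPM.

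Cell cycle genes separated the TMG replicates from each other and not the arms. Of 38 genes of G2 and M phase, TMG replicate 1 was below both controls for 26 and replicate 2 above both for 35, so 0 lay on the same side in both. MKI67, the proliferation marker, was at 286 and 245 CPM in the controls and at 195 and 363 CPM in TMG. Of 33 S phase genes, replicate 1 was below for 27 and replicate 2 above for 22. Other lists followed the replicate number in both arms. The median deviation of 32 unfolded protein response and chaperone genes was -0.45 and 0.45 in control replicates 1 and 2 and -0.44 and 0.20 in TMG replicates 1 and 2. For 23 glycolysis genes it was -0.48 and 0.48, and -0.36 and 0.22, and for 36 histone genes -0.63 and 0.63, and -0.62 and 0.66. HSP90AA1, a chaperone of the first list, was at 441 and 1074 CPM in the controls and at 473 and 763 CPM in TMG. In these 3 lists the libraries numbered 1 resembled each other and so did those numbered 2. The replicate number coincides with the treatment tag on D12, and the 2 cannot be told apart.

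Whether the D12 differences recurred was examined on D30, whose 4 libraries are separate from those of D12. Of the 103 genes that rose on D12 and were tested on D30, 92 (89.3%) had a positive log2 fold change on D30, compared with 63.5% of all genes that were higher on D12, and the median went from 1.98 to 1.45. At an unadjusted p under 0.05, 30 (29.1%) were higher on D30, where 7.1% of all genes were, and 0 were lower, where 4.89% of all genes were. On D0 their median was 0.04 and on D70 it was 0.88. Of the 12 genes that fell, 9 (75%) were negative on D30 (62.1% of all genes lower on D12), and 2 of them, GPC3 and PCYOX1L, at an unadjusted p under 0.05. On D30 SLC40A1 had a log2 fold change of 3.19 ± 1.26 (unadjusted p = 0.0283 by edgeR) and EPHA6 of 3.68 ± 0.74 (unadjusted p = 0.000412). TP63, at 6.18 ± 3.39, and COL17A1, at 2.95 ± 1.72, did not pass (unadjusted p = 0.0964 and 0.115), and ABCA4 was at -0.50 ± 0.43 and LRRK2 at 0.40 ± 0.91. The epithelial list had a median of 0.83 on D30, where 0 of its 24 members were higher at an unadjusted p under 0.05, and of -0.12 on D0, the neural crest list 1.39 and -0.07 and the forebrain factors -0.75 and -0.09.

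**Figure D5:**
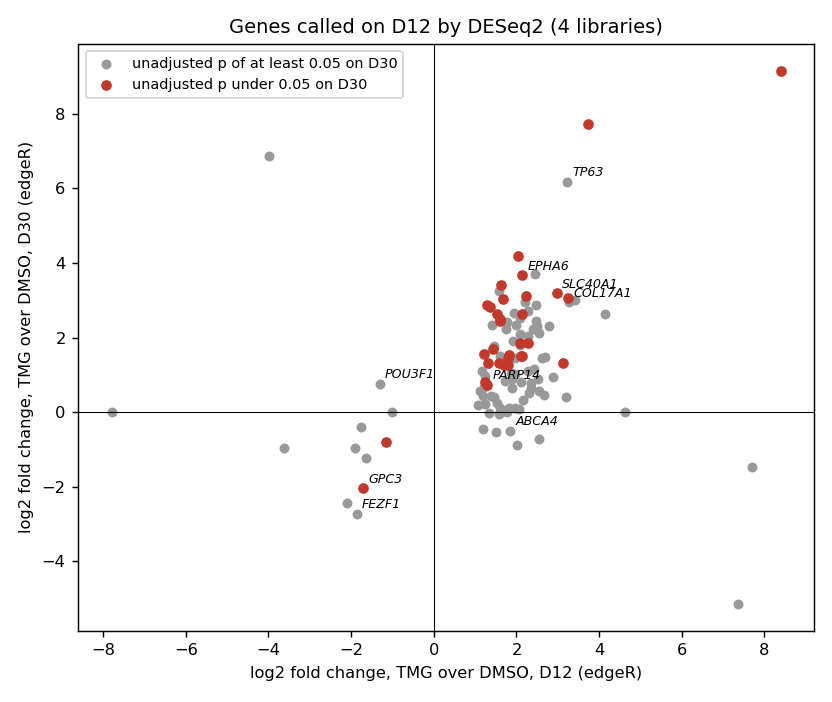
Log2 fold changes (edgeR) on D12 (horizontal) and D30 (vertical) of the genes called on D12 by DESeq2 on 4 libraries that were tested in the fit of 16; red marks an unadjusted p under 0.05 on D30. Most genes that rose lie in the upper right quadrant, with ABCA4 below zero on D30; points beyond 7 in size on the D12 axis are genes with few or no counts in an arm.

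The difference between the effect on D12 and that on another stage was tested as an interaction. edgeR called 0 genes for each stage, with 260 genes at an unadjusted p under 0.05 against D0, 828 against D30 and 584 against D70, and DESeq2 called 3, 16 and 11. Genes were also ordered by their course in the controls, as the log2 change from D0 to D70, which uses no D12 library. The cut at 1 CPM was taken on D12, so membership is not independent of the D12 libraries. The effect of this cut on the shares was not tested. Of 496 genes at 1 CPM or more on D12 whose control level was higher on D70 than on D0 by more than 4 on the log2 scale, 33.5% lay above both controls in TMG on D12 and 7.26% below, with a median of 0.30. Of 122 genes lower on D70 by more than 4, 19.7% lay above and 30.3% below, with a median of -0.11. In the 11751 genes within 1 in either direction the shares were 17.8% and 16.2%. The medians of the 496 genes were 0.36 in TMG replicate 1 and 0.20 in replicate 2, and those of the 122 genes were -0.11 and -0.02, so that only the higher side of this tilt was present in both.

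By gene type, protein-coding genes were above both controls in 20.3% of 16177 cases and below in 13.6%, whereas long noncoding RNAs were above in 13% of 4059 and below in 22.6%, with a median of -0.11, and processed pseudogenes above in 12.4% of 1890 and below in 21.8%. The median deviation of long noncoding RNAs was 0.06 and -0.06 in the controls and -0.04 and -0.13 in TMG replicates 1 and 2. For processed pseudogenes it was 0.10 and -0.10, and -0.06 and -0.11. In both types replicate 1 lay within the control range, and for the pseudogenes replicate 2 lay close to its lower end. Many processed pseudogenes are copies of ribosomal protein genes, and the values of both are given as measured.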

How the data were processed

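H9 cells on D12 gave 2 DMSO and 2 TMG libraries of ribosomal RNA-depleted total RNA. Per the submitters' processing notes the authors used Bowtie2, RSEM 1.2.12 and hg19. The deposited values are RSEM's estimated counts for 57736 Ensembl genes, as whole numbers and not normalized; how they were rounded and whether strand was used are not given in the sources used here. Gene positions and symbols were taken from a GENCODE annotation on GRCh37.

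From the deposited estimated counts, TMG was compared with DMSO on D12 in 1 fit of 16 libraries and 8 groups with edgeR 4.0.16 (TMM, filterByExpr at a minimum count of 10 and total of 15, robust quasi-likelihood test, Benjamini-Hochberg adjustment over 24249 genes, R 4.3.3). DESeq2 1.42.0 was run on 16 libraries and on the 4 of D12. Each fit was tested on simulated data. Standard errors were derived from the fold change and its F statistic; deviations used log2 CPM with a prior count of 2. Library totals on D12 differed by little. Depth limits precision for genes with few counts. Whether the spread between libraries is the main limit for the other genes was not tested.

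The gene rule was: genes past the adjusted threshold, of which there were 0; the 12 lowest unadjusted p-values per direction among genes with a symbol at 1 CPM or more in an arm; all calls of DESeq2 on 16 libraries and the 12 highest-ranked calls per direction on 4; per list, up to 6 members at an unadjusted p under 0.05 and the 2 with the highest CPM; PAX6, OTX1, NES and the genes the study's text names. It gives more genes than are printed, and those printed stand where their group is described. Genes named outside it were chosen after their values were seen. The comparison, the 70 lists and the rule were chosen with earlier results of these data known, and 4 lists were added after the values were seen. Names that match no gene are left out of list sizes, and mitochondrially encoded genes were not analysed here; some genes and lists are not reported here. Alternatives were DESeq2, edgeR on fewer libraries, RLE scaling, no filter, a replicate block and each D12 library left out.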

Additional observations from a re-analysis of the deposited data

Results flagged for a closer look

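For 4 genes named above the TMG effect on D12 differed from that at another stage by DESeq2's interaction term, although edgeR's interaction test gave adjusted p-values between 0.556 and 1 for all of these differences.

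For ABCA4 the log2 effect on D12 exceeded that on D30 by 2.36 ± 0.52 SE (DESeq2 adjusted p = 0.00967) and that on D70 by 4.14 ± 0.49 (adjusted p = 4.8e-13). It was higher in both TMG replicates on D12, and on D70 it was at 128 and 93.2 CPM in the controls and at 27.1 and 17.6 CPM in TMG. MYO7A, higher on D12, was at 11.5 and 36.9 CPM in the controls of D70 and at 7.19 and 6.47 CPM in TMG, a difference of effects of 3.39 ± 0.66 (adjusted p = 0.0014). TRPM1 showed a difference of 11.65 ± 1.83 (adjusted p = 2.21e-06); on D70 it was at 7.01 and 163 CPM in the controls and at 0.158 and 0.0925 CPM in TMG. SFRP4 was at 21.3 and 16.8 CPM in the controls of D70 and at 4.5 and 10.5 CPM in TMG, a difference of 4.47 ± 0.92 (adjusted p = 0.0047). All of these are genes chosen on D12, and ABCA4, MYO7A and TRPM1 belong to the list of pigment cells and retinal pigment epithelium, whose median was 0.48 on D12 and -1.62 on D70.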

How the results depend on the processing

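Adjusted calls depended on the tool: edgeR gave 0 in each of its fits, DESeq2 gave 11 on 16 libraries and 116 on the 4 of D12. The count higher at an unadjusted p under 0.05 was 374, against 748 by DESeq2 on 4 libraries, 810 by edgeR on 4, 859 by edgeR without D70, 940 with a replicate block, and 179 to 378 when a D12 library was left out. The count lower was 227, against 502 by edgeR on 4 libraries, 544 without D70, 536 with the block, and 100 to 336 without a library. The labels say nothing of what a replicate number shares; deviations of same-numbered D12 libraries correlated at 0.367 over 24249 genes and 2 pairs, and edgeR with the block still called 0. DESeq2's 104 and 12 calls on 4 libraries became, without a library (chosen after seeing the data), 1 to 100 and 0 to 61. The interaction with D0, D30 and D70 gave 0 calls by edgeR and 3, 16 and 11 by DESeq2. Leaving out a library moved the median of the epithelial list from 0.71 to 1.48, of neural crest from 0.26 to 1.71, of ribosomal proteins from 0.25 to 0.46 and of forebrain factors from -0.78 to -0.16; the Notch list ranged from -0.36 to -0.04, and none of these 5 lists changed sign. The sign of 11 genes changed when a library was left out, all with an edgeR adjusted p of 1. CGA ran from -0.16 and HOPX from -0.29 without TMG replicate 1 to 3.54 without TMG replicate 2 and 3.72 without control replicate 1. SOX10 ran from -0.25 and DLL3 from -0.10 without TMG replicate 2 to 1.80 and 0.96 without TMG replicate 1, DLL4 from -0.56 without control replicate 2 to 0.12 without control replicate 1, and JAG2 from -0.66 without TMG replicate 1 to 0.27 without TMG replicate 2 (0.18 without control replicate 1). Each of 5 other genes changed sign under a pair of these omissions: HES1 (0.05 and 0.06, lowest -0.82), HSP90AA1 (0.01 and 0.49, lowest -0.80), KRT14 (0.40 and 2.92, lowest -3.33), MKI67 (-0.45 and -0.04, highest 0.45) and OTX1 (-0.27 and -0.25, highest 0.40). Of 1565 values of 143 genes under the alternatives, 1483 kept direction and side of the threshold and 65 (58 genes) passed it only there. The causes were not tested. Depth limits genes with few counts, such as KRT14, CGA in replicate 2 and RTL1.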

Other observations

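As a list, imprinted genes stood near the background. Of 28 tested, 6 (21.4%) lay above and 5 (17.9%) below both controls on D12, against 17.8% and 16.5% of all genes, with a median of 0.03. Of the members below, DLK1 and RTL1 were named by the gene rule, and H19, IGF2 and MEG3 were chosen after their values were seen. H19, the maternal RNA of its chromosome 11 domain, rose from 103 and 95.5 CPM to 745 and 227 CPM, and IGF2, the paternal growth factor beside it, from 88.7 and 55.3 CPM to 407 and 156 CPM (DESeq2 adjusted p = 0.000893 and 0.004). In the chromosome 14 domain, DLK1, a paternal Delta-like protein, fell from 249 and 104 CPM to 68.5 and 25.6 CPM (DESeq2 adjusted p = 0.031), RTL1 was at 2.65 and 0.602 CPM in the controls and at 0.468 and 0.124 CPM in TMG, and the maternal RNA MEG3 at 2.11 and 0.876 CPM against 0.727 and 0.249 CPM. H19 and IGF2 were highest in TMG replicate 1, in which the epithelial group was also highest; the part of other cell types in this was not tested.

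Chromosome 19 leaned to lower values, and some other chromosomes leaned less in either direction. On chromosome 16, 13.8% of genes lay above and 22% below both controls, and on chromosome 22, 13.4% and 19.1%. Chromosomes 4 (22.4% and 11.4%) and 13 (24.1% and 13.3%) leaned to higher values. Of the 1512 tested genes of chromosome 19, 8.99% lay above both controls on D12 and 23.1% below, with a median of -0.08, against 17.8% and 16.5% over all genes. The shares were 9.61% and 19.7% for its 229 zinc finger genes of the ZNF series and 8.89% and 23.7% for its other 1283 genes.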
